A study of Mus musculus with 2 samples.

Results

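The miRNA genes of red blood cells and white blood cells were followed in the gastrocnemius, a hindlimb calf muscle, by small RNA sequencing (microRNA-seq). The 9 genes were chosen by name from the 2202 miRNA genes of the count tables. Mir451a, Mir451b and Mir144 form an erythroid locus, and Mir142, Mir223, Mir150, Mir155, Mir146 and Mir342 are genes known from leukocytes. The 2 samples were whole muscle of male mice at 10 days of age. Both were of the hybrid strain B6CASTF1/J, which carries 1 C57BL/6J and 1 CAST/EiJ chromosome set. They are numbered as biological replicates 1 and 2, the labels give them different animal numbers and 1 shared donor entry, and there is 1 group with no treatment named, so no condition could be compared. The tables hold miRNA genes only, and the names erythroid and leukocyte could not be checked against messenger RNA markers such as globins. In whole tissue, fewer cells of a type and less RNA per cell cannot be told apart.

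MicroRNAs are short RNAs cut from hairpins that guide Argonaute proteins to messenger RNAs, mainly through the seed, bases 2 to 8 counted from the 5′ end. Mir144 and Mir451a are made from 1 primary transcript that is switched on by the factor GATA1 in developing red cells, and miR-451a is unusual in that its hairpin is cut by Ago2 instead of Dicer. Mir142 is used in nearly all blood cell lineages, Mir223 in granulocytes, monocytes and platelets, and Mir150 in mature lymphocytes. Mir155 is induced in activated lymphocytes and macrophages, Mir146 encodes miR-146a, a feedback inhibitor of inflammatory signalling, and Mir342 lies in the gene Evl. Mir146, Mir155 and Mir342 are also known from cells outside the blood, among them endothelium and fibroblasts.

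The mature sequences are shown because their seeds define what each miRNA can bind, and because they show how unlike one another these miRNAs are. RefSeq sequences (GRCm38.p6) were matched for 8 of the 9 genes, and Mir150 is named only. Lines run 5′ to 3′ with the seed in capitals, and both arms are given for Mir144 and Mir142 because counts per hairpin do not separate arms.
miR-451a: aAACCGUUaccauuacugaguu
miR-451b: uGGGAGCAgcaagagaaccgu
miR-144-5p: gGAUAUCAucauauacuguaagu
miR-144-3p: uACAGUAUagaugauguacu
miR-142a-5p: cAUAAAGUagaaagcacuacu
miR-142a-3p: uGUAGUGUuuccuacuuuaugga
miR-223-3p: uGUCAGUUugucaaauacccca
miR-155-5p: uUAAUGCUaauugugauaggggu
miR-146a-5p: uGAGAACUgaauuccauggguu
miR-342-3p: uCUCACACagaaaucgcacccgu
The 10 sequences have 10 different seeds. One of these seeds, GAGAACU of miR-146a-5p, was found in a mature miRNA of another gene in the RefSeq table, miR-146b-5p of Mir146b.
miR-146b-5p: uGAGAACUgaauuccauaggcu
Counted from the 5′ end, miR-146a-5p and miR-146b-5p differ by the substitutions G18A and U21C, the first base being that of miR-146a-5p. The first 7 bases of miR-144-3p are also those of miR-101a-3p, and the seeds part at U8C.

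The 3 erythroid genes lie together on chromosome 11, and the leukocyte genes are spread over 5 chromosomes. In mm10, Mir144 (chromosome 11, 78073005 to 78073070, plus strand) is followed after 99 bases by Mir451a (chromosome 11, 78073170 to 78073241, plus strand), with no host gene on that strand in GENCODE M21. Mir451b has the same coordinates on the minus strand, and its hairpin is the reverse complement of that of Mir451a. In the RNAfold structure of its hairpin of 72 bases, miR-451a (hairpin bases 17 to 38) takes in the whole terminal loop (bases 35 to 38), which none of the other 9 member sequences printed did. Mir142 (chromosome 11, 87756864 to 87756927, plus strand) lies in an intron of the long non-coding RNA gene Mir142hg, and Mir142b overlaps its whole length on the minus strand. Mir155 (chromosome 16, 84714140 to 84714204, plus strand) lies in an exon of Mir155hg, Mir223 (chromosome X, 96242817 to 96242926, plus strand) in an exon of F630028O10Rik, and Mir342 (chromosome 12, 108658620 to 108658718, plus strand) in an intron of Evl. Mir150 (chromosome 7, 45121757 to 45121821, plus strand) and Mir146 (chromosome 11, 43374397 to 43374461, minus strand) have no host gene on their strand. Reads that match several genomic places are in no gene, so the longest stretch shared with a miRNA gene elsewhere was measured. It was 21 nt for Mir146, shared with Mir146b, and 11 to 13 nt for the other 8 members.

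Replicate 1 held 3999172 reads assigned to miRNA genes and replicate 2 held 5062714. Levels are counts per 1000000 assigned reads (CPM), and intervals are exact 95% intervals (Clopper-Pearson) that cover counting error only. No molecular identifiers mark copies of a read. A gene was called detected from 10 counts upward in each library, which 313 of the 2202 genes met, 8 of the 9 members among them. The tissue label was checked against the muscle miRNA Mir206, at 100599 CPM in the first library and 87446 CPM in the second. That check rests on Mir206 alone. The other muscle genes of the marker list used below had far lower means, from 1.67 CPM (Mir133a-2) to 247 CPM (Mir499). Among them, Mir1a-1 had 2.61, Mir1a-2 102, Mir133a-1 5.84 and Mir133b 38.8 CPM. Whether reads left out for matching several genomic places lowered these levels was not tested.

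Mir451a was the most abundant member in both libraries and the one that differed most between them. It had 6287 reads and 1572 CPM in replicate 1 (interval 1533 to 1611) against 19749 reads and 3901 CPM in replicate 2 (interval 3847 to 3956), a mean of 2736 ± 1647 CPM (SD, n = 2). By assigned reads only, it ranked 63rd of all miRNA genes in replicate 1 and 36th in replicate 2. Replicate 2 was high and the intervals lay far apart, so the mean describes neither library.

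Mir144, the partner of Mir451a on the same transcript, was counted far less. Its level was 108 CPM in replicate 1 (433 reads) and 187 CPM in replicate 2 (946 reads), or 148 ± 56 CPM. Replicate 2 was again the higher library. Within a library, 14.5 reads of Mir451a were counted for each read of Mir144 in replicate 1 and 20.9 in replicate 2. The other gene of the locus, Mir451b, had 0 reads in its own sense in both libraries, where the limit used for a count of 0, which is 3 counts, equals 0.75 CPM in the first library and 0.593 CPM in the second (upper exact bounds 0.922 and 0.729 CPM).

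The leukocyte genes formed a steady series of levels that was led by the intronic Mir342. Mir342 had 852 and 834 CPM in replicates 1 and 2 (843 ± 13 CPM), from 3408 and 4220 reads. It made up 49.5% of the reads of the 6 leukocyte genes in each library. Mir146, the gene of miR-146a, followed with 445 and 404 CPM (424 ± 29 CPM). Mir155 had 211 and 232 CPM (222 ± 15 CPM), with replicate 2 the higher. Mir150, the lymphocyte miRNA, had 115 and 106 CPM (111 ± 7 CPM), with replicate 1 the higher.

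The lowest levels among the detected members belonged to Mir142 and Mir223, the leukocyte genes best known for being restricted to blood lineages. Mir142 had 70.0 CPM in replicate 1 (280 reads) and 84.3 CPM in replicate 2 (427 reads), or 77.2 ± 10.1 CPM. Mir223, of granulocytes, monocytes and platelets, had 26.5 CPM (106 reads) and 24.5 CPM (124 reads), or 25.5 ± 1.4 CPM. In the order of levels Mir451a, Mir342, Mir146, Mir155, Mir144, Mir150, Mir142, Mir223 and Mir451b, the libraries of neighbouring genes did not overlap except those of Mir144 and Mir150, whose means were 37.0 CPM apart against an SD of 55.6 CPM for Mir144. The difference between the means of Mir451a and Mir342, 1894 CPM, was close to the SD of Mir451a, although both libraries had Mir451a above Mir342. The miRNAs are short RNAs cut from the hairpins, so CPM was not divided by length. Per kilobase of hairpin (hairpins of 64 to 110 bases) the order of the 9 genes was the same.

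**Figure D1:**
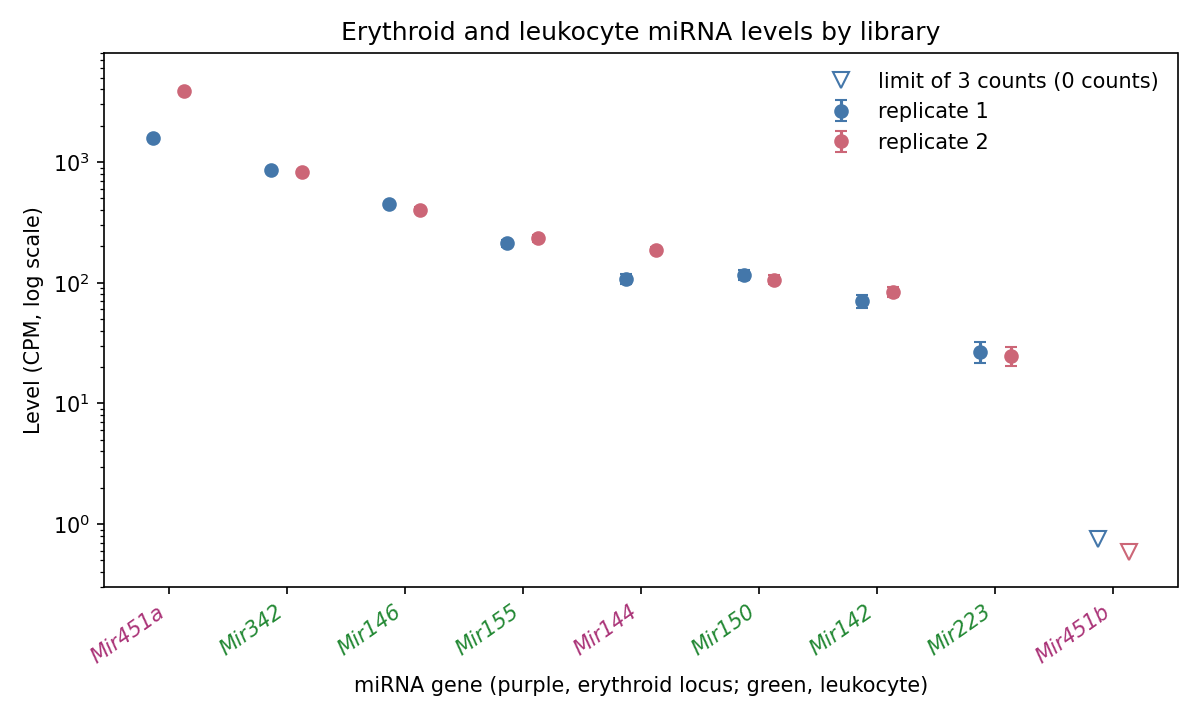
Level of the 9 genes in CPM (log axis), 1 point per library with its exact 95% interval, ordered by mean level; open triangles mark the limit that 0 counts allow. Mir451a stands at 1572 CPM in replicate 1 and at 3901 CPM in replicate 2, while the 2 points of each leukocyte gene lie close together and Mir451b has no counts.

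As a group, the erythroid genes took a larger share of the reads in replicate 2, while the shares of the leukocyte genes lay within each other's counting error. The 3 erythroid genes took 0.168% of assigned reads in replicate 1 (interval 0.164 to 0.172) and 0.409% in replicate 2 (interval 0.403 to 0.414). The 6 leukocyte genes took 0.172% (interval 0.168 to 0.176) and 0.168% (interval 0.165 to 0.172), and these intervals overlap. Erythroid reads per leukocyte read were thus 0.977 in replicate 1 and 2.43 in replicate 2. Mir451a alone held 46.2% of the reads of the 9 genes in replicate 1 and 67.6% in replicate 2.

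The identity of 2 members rests on strand. At the Mir451a locus, every one of the 6287 and 19749 reads lay on the plus strand, the sense of Mir451a. Mir144, the neighbour, had all of its 433 and 946 reads in the same column. Counted without regard to strand it had the same numbers, so these reads fall in no other counted miRNA gene. Set against the limit of 3 counts used for a count of 0, Mir451a stood 2096-fold above Mir451b in replicate 1 and 6583-fold above it in replicate 2. The exact upper bounds of a count of 0 lie above that limit and allow smaller folds. Mir142 and Mir142b gave the same picture, with 280 and 427 reads for Mir142 and 0 for Mir142b, 93.3-fold and 142-fold above the same limit. The annotated miR-142b lies opposite miR-142a-3p over 20 bases, whereas miR-451a and miR-451b do not overlap. In the column counted without regard to strand, Mir451a, Mir451b, Mir142 and Mir142b all stand at 0, because a read there falls in 2 genes. The reads of Mir451a would make up 0.882% of the ambiguous reads of that column in replicate 1 and 2.13% in replicate 2.

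**Figure D2:**
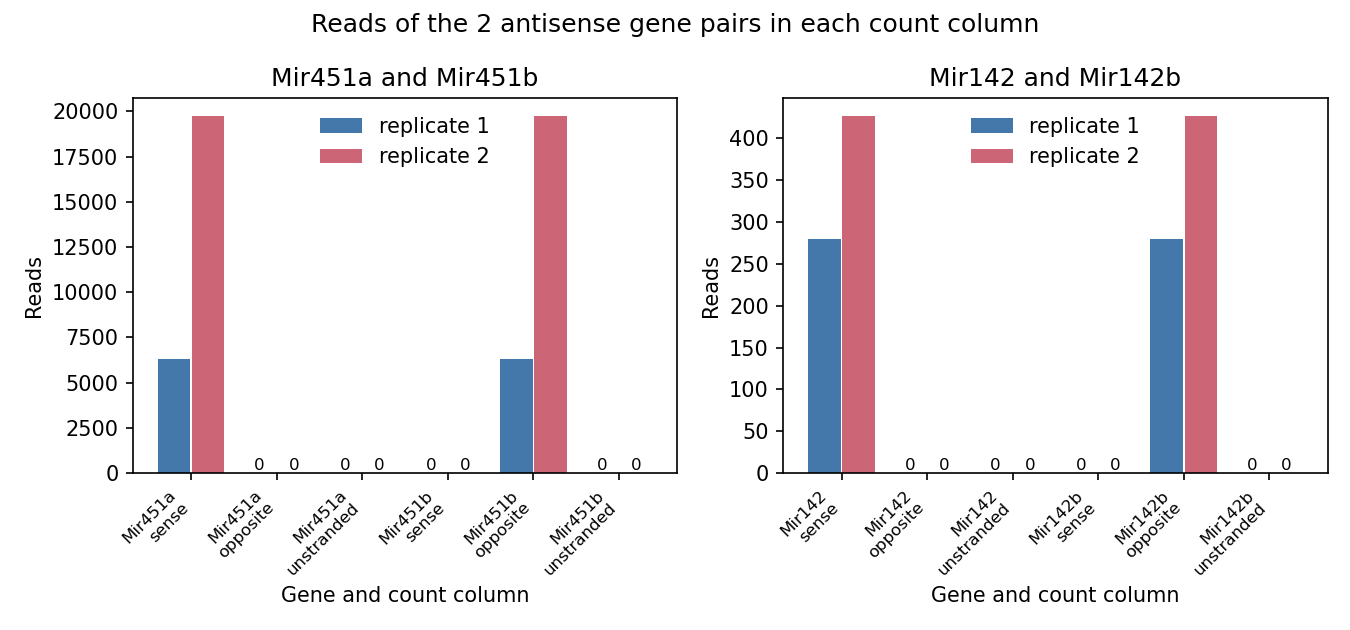
Reads of the antisense pairs Mir451a with Mir451b (left) and Mir142 with Mir142b (right) in the sense, opposite and unstranded count columns, 1 bar per library. Reads appear in the sense column of Mir451a and Mir142 and in the opposite column of their partners, and the unstranded column holds 0 for all 4 genes.

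Mir146b, found to share the seed of miR-146a-5p in the search over the 10 printed member sequences, was barely counted. It had 2 reads in replicate 1 and 0 in replicate 2, against 1779 and 2046 reads of Mir146. The 2 genes share 21 nt of hairpin, and reads that fit both would be counted for neither. Mir101a, named after its values were seen, encodes miR-101a-3p, which begins with the same 7 bases as miR-144-3p. It had 36.4 ± 3.3 CPM, against 148 ± 56 CPM for Mir144. Mir101b, also named after its values were seen, encodes miR-101b-3p, which holds the same 7 bases as its seed, 1 base further in. It had 175 ± 17 CPM, a mean above that of Mir144.

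The libraries were compared at each gene by an exact binomial test (two-sided) of its reads, with TMM-scaled totals and Benjamini-Hochberg adjustment over the 332 genes that averaged 10 counts or more. The test covers counting error only and compares these 2 libraries, not conditions, and there is no replicate check of any difference. Of all 332 genes, 39.5% passed at 0.05, 27.1% as higher and 12.3% as lower in replicate 2. These were 90 genes higher and 41 lower, but 62 and 79 with plain totals of assigned reads and 37 and 116 with plain totals of all reads. Of the 9 members, 8 reached the count minimum, and 4 of these 8 were higher and 0 lower in replicate 2, with 0 lower also at an unadjusted 0.05. At that unadjusted cut, 96 of all 332 genes were higher and 52 were lower, so few of 8 genes would be lower in any case. The members' median log2 ratio was 0.12 and that of all tested genes 0.02. These shares are described only, since earlier results of these data were known when the genes were chosen.

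Both counted erythroid genes were higher in replicate 2, and Mir451a more so than Mir144. Mir451a was 2.61-fold higher (log2 ratio 1.38, interval 1.34 to 1.42). With edgeR's exact test, its adjusted p was 0.000151. That test gives all genes the same spread between libraries (edgeR's biological coefficient of variation, 0.14), estimated from these same 2 libraries. It holds no estimate of the spread of Mir451a itself. Mir144 was 1.81-fold higher (log2 ratio 0.86, interval 0.69 to 1.03, exact binomial adjusted p = 5.24e-25), but its adjusted p with edgeR's exact test was 0.181. A difference of at least 1.5-fold upward that passed the binomial test was found for these 2 of the 8 members and for 6.33% of all tested genes. The call with edgeR's exact test held for 1 of the 8, Mir451a, and for 1.81% of all tested genes. Among the 173 genes that averaged 100 CPM or more, Mir451a had the second and Mir144 the third largest ratio, and among all 332 tested genes, many of them of low count, they ranked 13th and 19th.

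Of the 6 leukocyte genes, 2 were higher in replicate 2 by the binomial test, 0 were lower and 4 did not pass. Among all tested genes 27.1% were higher and 12.3% lower, so this count is near the background. Mir142 was 1.27-fold higher in replicate 2 (log2 ratio 0.34, interval 0.12 to 0.56, exact binomial adjusted p = 0.00752) and Mir155 was 1.16-fold higher (log2 ratio 0.21, interval 0.08 to 0.34, exact binomial adjusted p = 0.00467). Neither passed with edgeR's exact test (adjusted p = 1.0 for each) or with plain totals of all reads, where the exact binomial adjusted p was 0.139 for Mir142 and 0.429 for Mir155. Mir155 did not pass with plain totals of assigned reads either (exact binomial adjusted p = 0.0757). Of the other 4, Mir342 had a log2 ratio of 0.04 (interval -0.03 to 0.10), Mir223 of -0.04 (interval -0.43 to 0.35), Mir150 of -0.05 (interval -0.23 to 0.13) and Mir146 of -0.07 (interval -0.16 to 0.03). Mir223 was the least counted of them, and its interval reaches a 1.27-fold higher level in replicate 2. With plain totals of assigned reads Mir146 passed as lower in replicate 2 (log2 ratio -0.14, exact binomial adjusted p = 0.0095), and with plain totals of all reads so did Mir342 (log2 ratio -0.11).

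**Figure D3:**
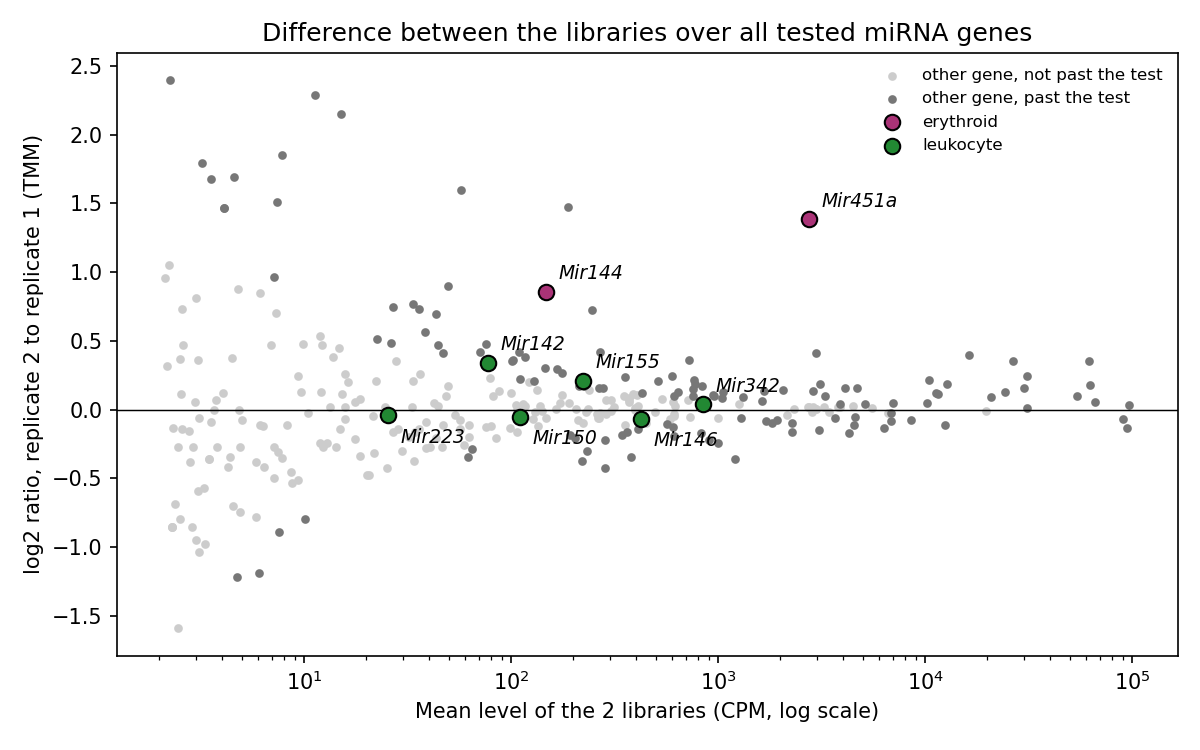
Mean level (CPM, log axis) against the log2 ratio of replicate 2 to replicate 1 after TMM scaling, 1 point per gene for the 332 tested genes; dark grey points passed the exact binomial test. Mir451a (1.38) and Mir144 (0.86) lie above nearly all genes of similar level, and the leukocyte genes lie between -0.07 and 0.34.

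Ratios within a library need no scaling, and Mir451a was higher in replicate 2 against every other counted member. All of these ratios use the same Mir451a reads, and Mir451a had the largest log2 ratio of the tested members. They restate its difference without scaling and are not separate checks of it. Mir451a reads per Mir342 read were 1.84 in replicate 1 and 4.68 in replicate 2, a change of 2.54-fold (exact interval 2.40 to 2.68, counting error only). The change was 2.73-fold against Mir146 (2.55 to 2.93), 2.70-fold against Mir150 (2.37 to 3.08) and 2.69-fold against Mir223 (2.05 to 3.51). It was 2.26-fold against Mir155 (2.05 to 2.48) and 2.06-fold against Mir142 (1.76 to 2.41). Against its own locus partner Mir144 the change was the smallest of the 7, at 1.44-fold (1.28 to 1.62). That interval does not reach 1, but it covers counting error only. Whether the unequal change exceeds the further spread between libraries was not tested. The 2 genes of the locus were both higher in replicate 2, by unequal amounts of reads.

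**Figure D4:**
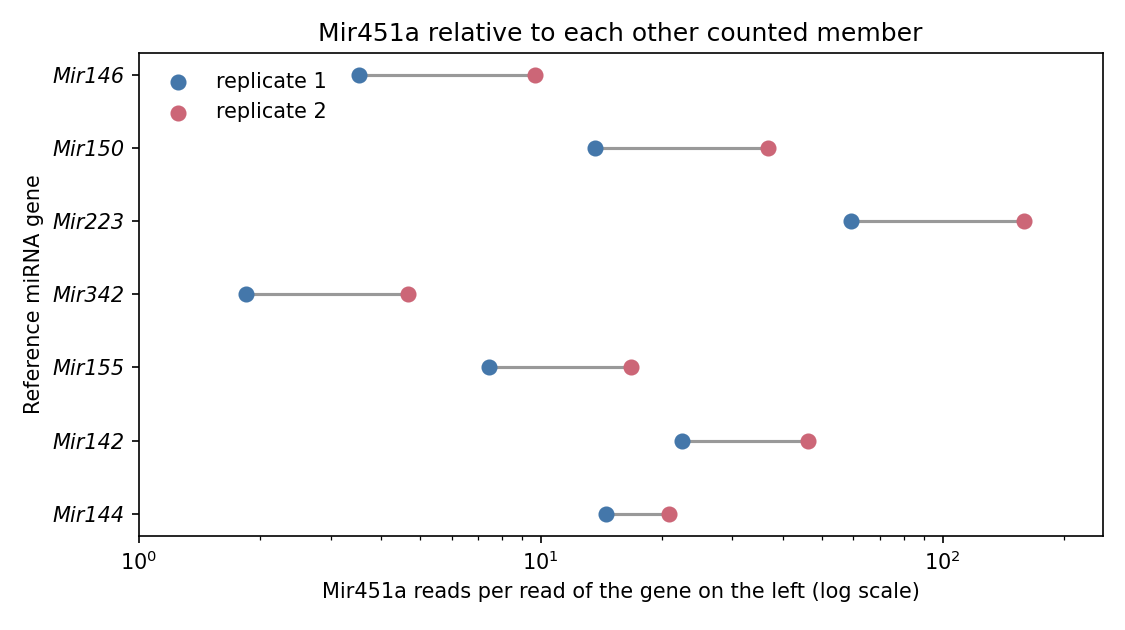
Reads of Mir451a per read of each of the 7 other counted members (log axis), 1 point per library, with rows sorted by the size of the change. Every ratio is higher in replicate 2, from 14.5 to 20.9 against Mir144 and from 3.53 to 9.65 against Mir146.

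The 2 lists of other miRNAs known from blood cells had shares of called genes near those of all 332 tested genes (27.1% higher and 12.3% lower), so their counts are no result about blood-cell miRNAs. Of 7 further erythroid or reticulocyte genes listed, 6 are annotated and 5 were tested, of which 1 was higher in replicate 2 and 4 did not pass. The gene that passed was Mir486, known from red cells and from muscle, at 205 and 219 CPM (log2 ratio 0.17, interval 0.04 to 0.30), and it did not pass with edgeR's exact test (adjusted p = 1.0). Mir210, a hypoxia-induced miRNA, had a log2 ratio of -0.16, Mir182 of -0.16, Mir183 of -0.37 and Mir363 of -0.50, and the median of the 5 was -0.16. Mir96 had 4 and 6 reads and was not tested. Of 9 further leukocyte genes, 6 were tested, of which 2 were higher and 4 did not pass, with a median log2 ratio of 0.04 against 0.02 for all tested genes.

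Among these leukocyte genes the Mir181 family, known from lymphocyte development and from many other tissues, was counted most. Mir181b-2 had 561 and 632 CPM (log2 ratio 0.24, interval 0.17 to 0.32) and Mir181b-1 had 5.00 and 9.28 CPM (log2 ratio 0.96, interval 0.18 to 1.80). Both passed the binomial test, and neither passed with edgeR's exact test (adjusted p = 1.0 for Mir181b-2 and 0.697 for Mir181b-1). Mir181a-1 (279 and 260 CPM) and Mir181a-2 (19.3 and 15.8 CPM) did not pass. Mir511, which lies in the macrophage mannose receptor gene, had 24.5 and 16.8 CPM (log2 ratio -0.47, interval -0.91 to -0.04) and did not pass after adjustment, nor did Mir326. Mir147 had 3 and 2 reads and was not tested.

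**Figure D5:**
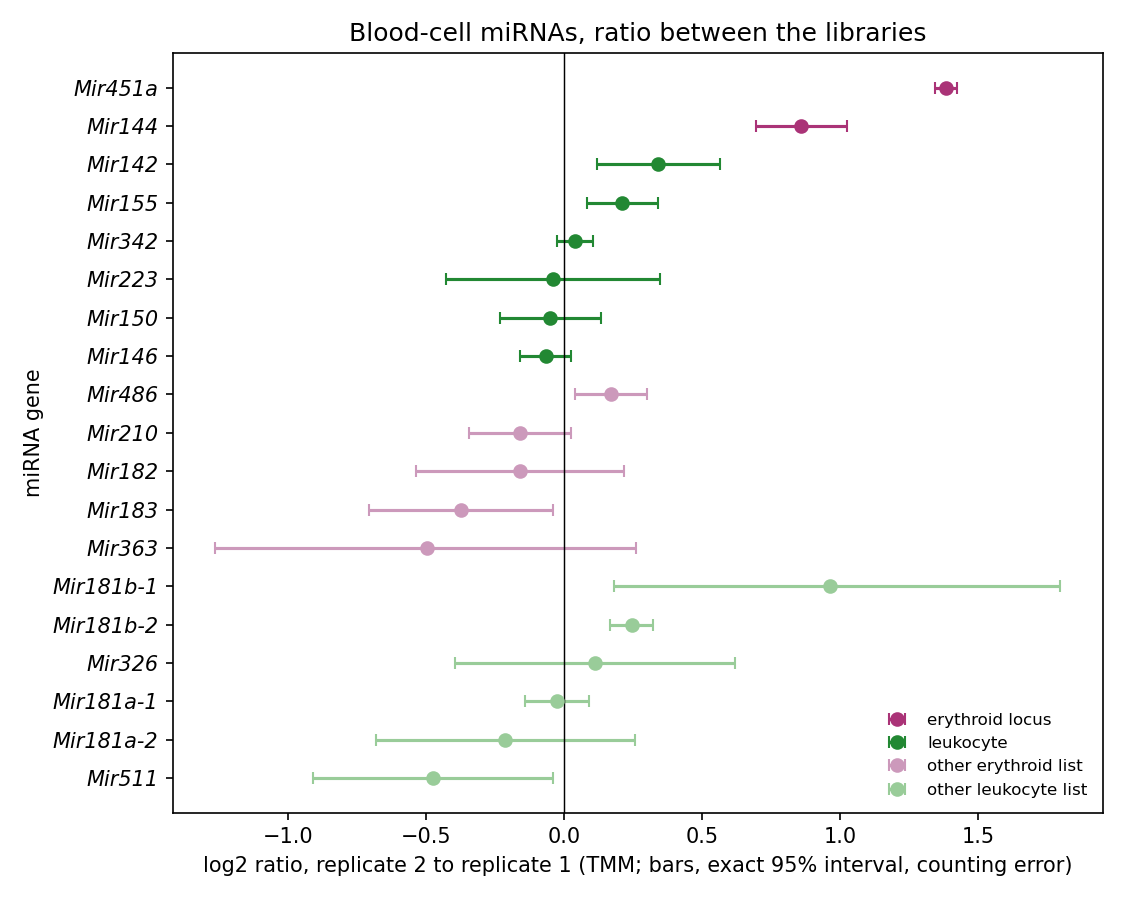
Log2 ratio of replicate 2 to replicate 1 (TMM) with exact 95% intervals for the 8 tested members and the 11 tested genes of the further erythroid and leukocyte lists. Mir451a (1.38) and Mir144 (0.86) are apart from the further erythroid genes, which lie between -0.50 and 0.17, and Mir181b-1 has a wide interval.

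Among non-member genes that averaged 100 CPM or more, the 3 nearest to Mir451a in log2 ratio over these 2 libraries were Mir122 (1.48, 0.09 away), Mir499 (0.72, 0.66 away) and Mir708 (0.42, 0.96 away). Mir122, the main miRNA of hepatocytes and one that circulates in plasma, had 103 and 272 CPM in replicates 1 and 2. Like Mir451a, Mir122 passed with edgeR's exact test (adjusted p = 9.16e-05). Marker lists of other cell types were summed beside it. The 8 muscle genes summed to 100971 CPM in replicate 1 and 87956 CPM in replicate 2, nearly all of it Mir206. Of the 7 muscle genes tested, 3 were higher in replicate 2 (Mir499, Mir208b and Mir1a-2, at log2 ratios of 0.72, 0.69 and 0.36), Mir206 was lower (-0.13) and 3 did not pass, with a median of 0.36. Among all tested genes 27.1% were higher and 12.3% lower. Neither these 3 nor Mir206 passed with edgeR's exact test (adjusted p = 0.34 for Mir499 and 0.57 for Mir208b). The endothelial genes summed to 55784 and 67925 CPM, nearly all of it Mir126a, which was higher (log2 ratio 0.36). The 7 epithelial genes summed to 90.8 and 71.9 CPM, and of the 4 tested 1 was lower (Mir205) and 3 did not pass. Mir126a and Mir205 did not pass with edgeR's exact test either. The 6 neuronal genes summed to 0.5 and 1.38 CPM, with Mir124a-2, Mir124a-3 and Mir9-2 at 0, and the 6 embryonic stem cell genes to 2.75 and 1.78 CPM, with Mir290a, Mir291a and Mir294 at 0. None of these 12 genes reached the count minimum of the test. Replicate 2 was also the deeper library. The part of these cell types in the difference of Mir451a and Mir144 was not tested.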

How the data were processed

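Small RNA libraries of 2 samples of 1 group were analysed. The authors deposited raw read counts per miRNA gene, 1 table per library, with 4 summary rows and 3 count columns (unstranded and 1 for each strand). Per the deposited metadata text, the assembly was mm10 and the annotation GENCODE M21; the aligner and counter were not given in the sources used here. The tables have no header, and the sense column was taken as the stranded column with the larger total, 5.53 times the other. The summary rows held 58.7% of reads in replicate 1 and 60.7% in replicate 2 and were left out of totals. CPM, exact binomial intervals, the binomial test between the libraries and within-library ratios were computed from the counts. The test was checked on simulated Poisson counts, which hold counting error only. That check does not cover calls that arise from further spread between libraries. No residual degrees of freedom remain between 2 single libraries, so a quasi-likelihood test was not used. Nothing beyond the labels shows separate animals, so the spread between the libraries may be technical. The members, lists and rules were chosen with earlier results of these data known. Named genes are the members, genes that overlap them or share a seed, 2 further blood-cell lists, marker lists and the 3 genes nearest to Mir451a in ratio among those of at least 100 CPM. Alternatives were the unstranded column, other totals, count minimums, levels per hairpin length, each library alone and edgeR's exact test. Software was Python 3.11.15, scipy 1.17.1, R 4.3.3, edgeR 4.0.16, DESeq2 1.42.0 (size factors) and RNAfold 2.7.2.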

Additional observations from a re-analysis of the deposited data

Results flagged for a closer look

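Reads were found on the strand opposite to 2 genes, above the limit of 3 used for a count of 0, in a count column that the levels do not use. At Mir451b there were 6287 such reads in replicate 1 and 19749 in replicate 2, which equal the sense reads of Mir451a in each library. At Mir142b there were 280 and 427, which equal the sense reads of Mir142.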

How the results depend on the processing

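With the unstranded column Mir451a stood at 0 CPM, the erythroid share was 0.0180% and the leukocyte share 0.198%, and no ratio to Mir451a could be computed. With all reads as the denominator the erythroid share was 0.115% and the leukocyte share 0.0686%. Per kilobase of hairpin, another unit, Mir451a was at 38007. Taken alone, the libraries gave Mir451a 1572 and 3901 CPM. Its log2 ratio ranged from 1.24 to 1.38 over its 6 alternatives and passed in each; that of Mir144 ranged from 0.71 to 0.86 over 7 and passed in all but edgeR's exact test. Mir342 turned from 0.04 to -0.11 with plain totals of all reads. The number of differing genes was 6 with edgeR's exact test, 6 higher and 0 lower (20 and 3 at an unadjusted 0.05). It was 62 higher and 79 lower with plain totals of assigned reads, and 37 and 116 with plain totals of all reads. Changing the totals moves the log2 ratio of every gene by the same amount. The median of all tested genes was 0.02 in the main setting and -0.13 with plain totals of all reads. The exact test of edgeR adds a common spread to counting error. Why the totals differ in this way was not tested. No paired analysis was possible because there is 1 group. Below 3 counts, as at Mir451b and Mir146b, the depth does not separate a low level from none.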
